A study of Mus musculus with 24 samples.

Results

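The expression of 10 genes was followed: the ligand gene Tgfb1, the receptor genes Tgfbr1 and Tgfbr2, the SMAD genes Smad2, Smad3, Smad4 and Smad7, and the co-repressor genes Tgif1, Skil and Ski. Their probes were taken from the array by gene symbol, and every detected probe was kept. The probe table names 16 of the 45281 probes for 8 of the 10 genes, and 14 of the 16 were detected, among 14119 detected probes in all. Smad4 and Smad7 have no probe named in that table and were not analysed here. A probe counted as detected when, in at least 1 group, both arrays gave a detection p-value, the chance of such a signal from negative control beads, under 0.01. The undetected probes were the third Tgfbr1 probe, which passed on 1 of 24 arrays, and the third Tgfbr2 probe, which passed on 0. Probes of a gene are numbered from the brightest.

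Transforming growth factor beta is made as a latent precursor and, once released, binds the type II receptor Tgfbr2, which then phosphorylates the type I receptor Tgfbr1. Tgfbr1 phosphorylates Smad2 and Smad3, which join Smad4 and enter the nucleus to regulate transcription. Smad7 blocks the receptor, while Ski, Skil and Tgif1 hold SMAD target genes in check. In macrophages the pathway is known for restraining inflammatory activation.

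The cells were RAW264.7, an established macrophage-like line of the mouse, and received 100 ng/ml LPS, a bacterial lipopolysaccharide that acts on TLR4, or 1 μM P3C, a lipopeptide that acts on TLR2, or 1 μM R848, an imidazoquinoline that acts on TLR7, or were left untreated. RNA was taken after 1, 2 or 4 h, which gave 12 groups of 2 arrays (replicates A and B). Per the methods, each pair came from duplicate biological samples. The study asked how the response differs between TLR ligands. All groups are 1 cell line, so nothing here speaks for primary macrophages, and in bulk RNA fewer cells of a kind and less RNA per cell cannot be told apart.

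Of 10 macrophage marker genes, all had a detected probe and 8 were detected on all 24 arrays, while no marker of fibroblasts, T cells, B cells, epithelial cells or platelets had a probe that passed the filter (2 genes with a probe for each). The median signal per array was 95.8 to 115. No slide, of 10, held a treated array together with an untreated array of the same time, so slide and treatment cannot be told apart in those comparisons. Values below are log2 signals after quantile normalization with no background correction, and differences are in log2 units, ligand minus untreated of the same time, with standard errors (SE) and adjusted p-values from limma over 14119 probes. Calls are adjusted p-values below 0.05. The 3 ligands at a time share the same untreated arrays.

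Across the 9 comparisons with untreated cells, 22 of 126 pairs of probe and comparison were called, 16 of them lower and 6 higher. At 1 h, 2 of the 14 probes were called with LPS, 0 with P3C and 2 with R848, where 2.86%, 2.42% and 2.79% of all tested probes were called. At 2 h each ligand gave 2 called probes, against 10.3%, 4.84% and 5.98% of all probes for LPS, P3C and R848. After 4 h of LPS, 7 probes of 4 genes were called, 5 lower and 2 higher, where 24% of all probes were called, 13.3% lower and 10.7% higher. The lower ones include the second Tgfbr1 probe, which passed the detection filter only through untreated groups. For P3C at 4 h the count was 2, both lower (9.26% of all probes called, 4.35% lower and 4.92% higher), and for R848 it was 3, all lower (10.9% called, 5.21% lower and 5.67% higher). The median difference of the 14 probes was −0.17 with LPS at 4 h, beside −0.04 for all probes. Ligand and untreated arrays did not overlap for 7, 7 and 9 of the 14 probes at 1 h (LPS, P3C and R848), against 37.4%, 45% and 40% of all probes. At 2 h this held for 7, 4 and 7, against 45.3%, 36.9% and 37.7%. At 4 h it held for 11, 11 and 10, against 65.1%, 55% and 57%. Statements below that arrays did not overlap are to be read beside these shares.

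**Figure D1:**
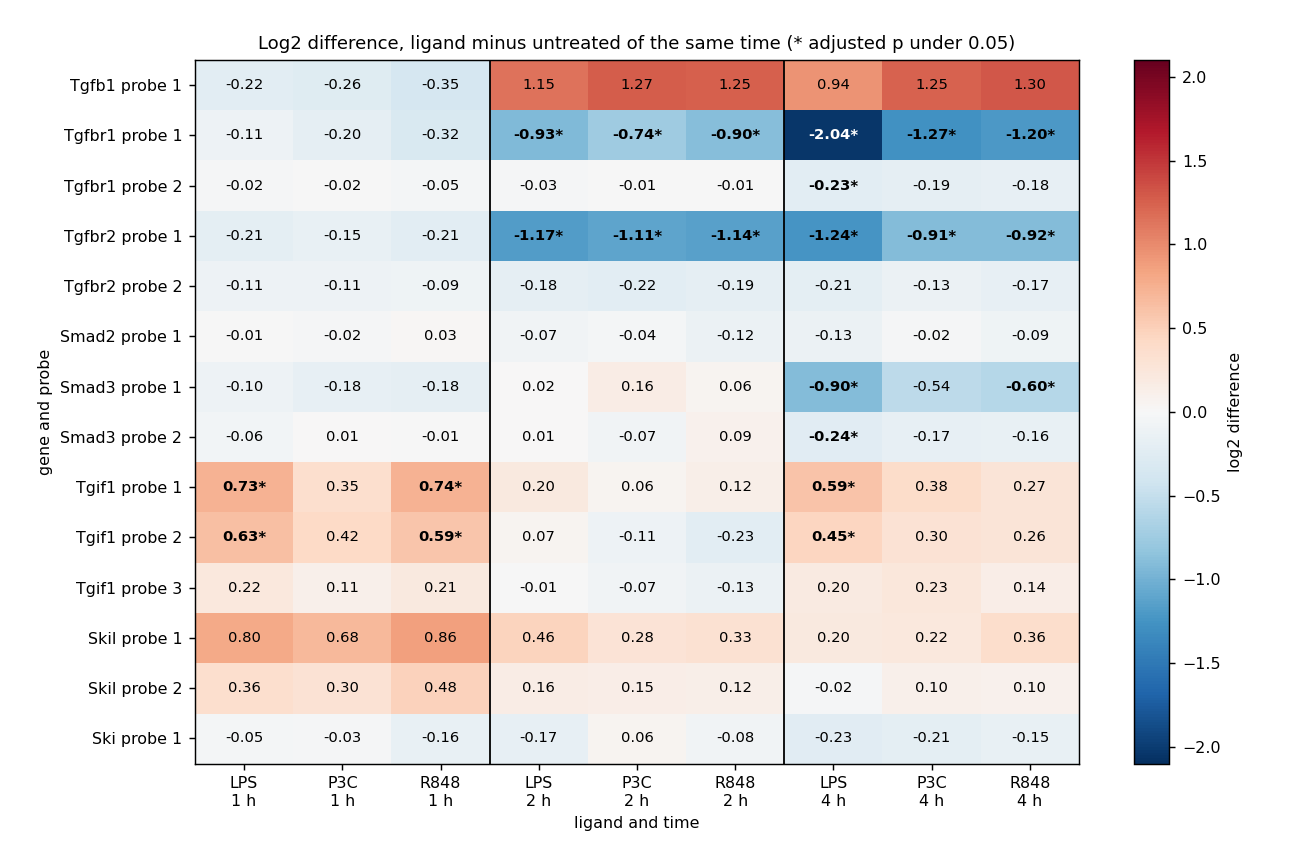
Log2 difference from untreated cells for the 14 detected probes (rows) under each ligand and time (columns), with blue for lower and red for higher, and an asterisk where the limma adjusted p was under 0.05. The receptor probes 1 are called lower at 2 and 4 h under each ligand, with the deepest value −2.04 for Tgfbr1 after 4 h of LPS.

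Tgfb1, the ligand gene, had higher mean signals with every ligand at 2 and 4 h, but no difference passed the test. At 2 h its signals were 11.44 and 10.42 in LPS-treated cells, 11.60 and 10.51 in P3C-treated cells and 11.76 and 10.31 in R848-treated cells, against 10.27 and 9.30 in untreated cells. Every ligand array was above both untreated arrays, where 45.3%, 36.9% and 37.7% of all probes did not overlap with LPS, P3C and R848. In each of the 4 groups replicate A was brighter than replicate B, by 0.97 to 1.45. The fit did not pair replicates, so this spread enters the SE. The differences were 1.15 with LPS, 1.27 with P3C and 1.25 with R848 (SE 0.530, adjusted p = 0.222, 0.242 and 0.221).

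At 4 h the Tgfb1 signals were 11.18 and 10.09 in LPS-treated cells, 10.60 and 11.28 in P3C-treated cells and 10.58 and 11.40 in R848-treated cells, against 9.68 and 9.70 in untreated cells. The ligand arrays were all above the untreated pair, where 65.1%, 55% and 57% of all probes did not overlap with LPS, P3C and R848. Here replicate A was the brighter with LPS but the dimmer with P3C and R848. The differences were 0.94, 1.25 and 1.30 (adjusted p = 0.232, 0.187 and 0.151). With slide as a random block in the model, all 3 differences at 2 h were called (1.56 to 1.60), as were P3C and R848 at 4 h (1.53 and 1.59). When only the 4 arrays compared were fitted, P3C and R848 at 4 h were also called (adjusted p = 0.0333 and 0.0415).

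Tgfbr1, the type I receptor kinase, fell with all 3 ligands at 2 and 4 h on its brightest probe, and at 4 h furthest with LPS. At 1 h its signals were 10.16 and 9.84 in LPS-treated cells, 9.94 and 9.89 in P3C-treated cells and 9.66 and 9.92 in R848-treated cells, against 10.28 and 9.94 in untreated cells. The differences of −0.11, −0.20 and −0.32 at 1 h (SE 0.131) were not called.

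At 2 h Tgfbr1 signals were 9.15 and 8.89 in LPS-treated cells, 9.22 and 9.21 in P3C-treated cells and 9.13 and 8.98 in R848-treated cells, against 10.05 and 9.86 in untreated cells. All ligand arrays were below both untreated arrays. The fall was 0.93 with LPS, 0.74 with P3C and 0.90 with R848 on the log2 scale (SE 0.131, adjusted p = 0.000171, 0.00299 and 0.000482), which left 52.4%, 59.8% and 53.6% of the untreated signal.

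At 4 h the Tgfbr1 signals were 7.71 and 7.74 in LPS-treated cells, 8.51 and 8.47 in P3C-treated cells and 8.65 and 8.47 in R848-treated cells, against 9.74 and 9.78 in untreated cells. The LPS arrays lay below all others, the P3C and R848 arrays overlapped each other, and the untreated arrays lay above all. Tgfbr1 fell by 2.04 with LPS (SE 0.131, adjusted p = 1.47e-08), by 1.27 with P3C (adjusted p = 1.07e-05) and by 1.20 after R848 (adjusted p = 1.52e-05), to 24.3%, 41.4% and 43.5% of the untreated signal.

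The second Tgfbr1 probe was near background and passed detection on 6 of 24 arrays. Both arrays of a group were detected only in untreated cells at 1 h and 4 h. The probe entered the test only through these groups, so a lower call for it is favoured by the filter. It read 6.65 and 6.73 with LPS at 4 h, where neither array was detected, against 6.90 and 6.93 in untreated cells, where both were. The difference of −0.23 was called (adjusted p = 0.00789) but not without LPS 4 h replicate A (−0.19, adjusted p = 0.0808) or untreated 4 h replicate B (−0.21, adjusted p = 0.0646). With P3C and R848 it read −0.19 and −0.18 and was not called.

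**Figure D2:**
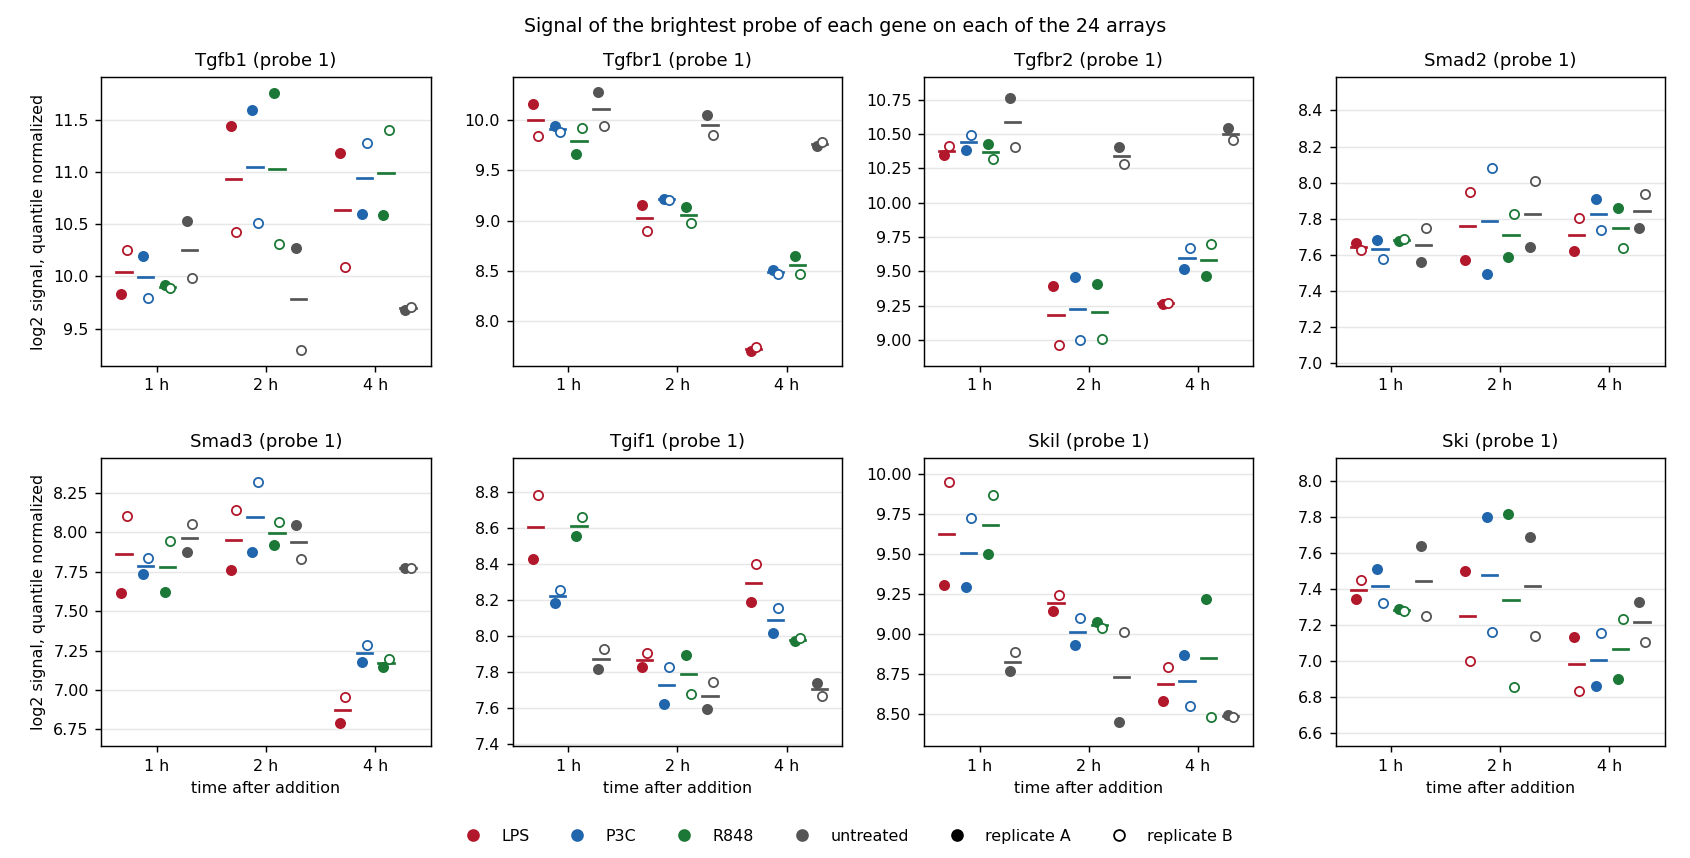
Quantile-normalized log2 signal (vertical axes, a separate scale for each gene) of the brightest probe of each of the 8 genes on every array, by time and, within each time, LPS, P3C, R848 and untreated from left to right. Filled points are replicate A, open points replicate B, and bars are means of 2 arrays. Tgfbr1 and Tgfbr2 separate from untreated cells at 2 and 4 h, while the replicates of Tgfb1 lie up to 1.45 apart.

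Tgfbr2, the type II receptor that binds the ligand, was lower at 2 h and 4 h with each ligand. At 1 h its signals were 10.35 and 10.41 in LPS-treated cells, 10.38 and 10.49 in P3C-treated cells and 10.42 and 10.32 in R848-treated cells, against 10.76 and 10.41 in untreated cells. The differences were −0.21, −0.15 and −0.21 (SE 0.173) and not called.

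At 2 h Tgfbr2 read 9.39 and 8.96 in LPS-treated cells, 9.46 and 8.997 in P3C-treated cells and 9.41 and 9.01 in R848-treated cells, against 10.41 and 10.28 in untreated cells. The 6 ligand arrays did not overlap the untreated pair, and the ranges of the 3 ligands overlapped. The differences were −1.17, −1.11 and −1.14 (adjusted p = 0.000278, 0.00103 and 0.000679), or 44.6%, 46.2% and 45.5% of the untreated signal.

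At 4 h the Tgfbr2 signals were 9.26 and 9.27 in LPS-treated cells, 9.52 and 9.67 in P3C-treated cells and 9.46 and 9.70 in R848-treated cells, against 10.55 and 10.46 in untreated cells. Again no ligand array reached the untreated range. The fall was 1.24 with LPS (adjusted p = 7.1e-05), 0.91 with P3C (adjusted p = 0.00282) and 0.92 after R848 (adjusted p = 0.00215). The second Tgfbr2 probe, detected on 22 arrays, had the same sign in all 9 comparisons, with −0.09 to −0.22, and was not called in any.

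With each array scaled by its median instead of quantile normalization, the receptor calls at 2 h ended for every ligand (Tgfbr1 −0.72 to −1.07, adjusted p = 0.301 to 1.0, and Tgfbr2 −1.04 to −1.32, adjusted p = 0.265 to 0.745), as did those of P3C and R848 at 4 h, while both genes stayed called with LPS at 4 h. When only the 4 arrays compared entered the fit, the differences were the same but none of the 6 receptor calls at 2 h passed (adjusted p = 0.0605 to 0.188).

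**Figure D3:**
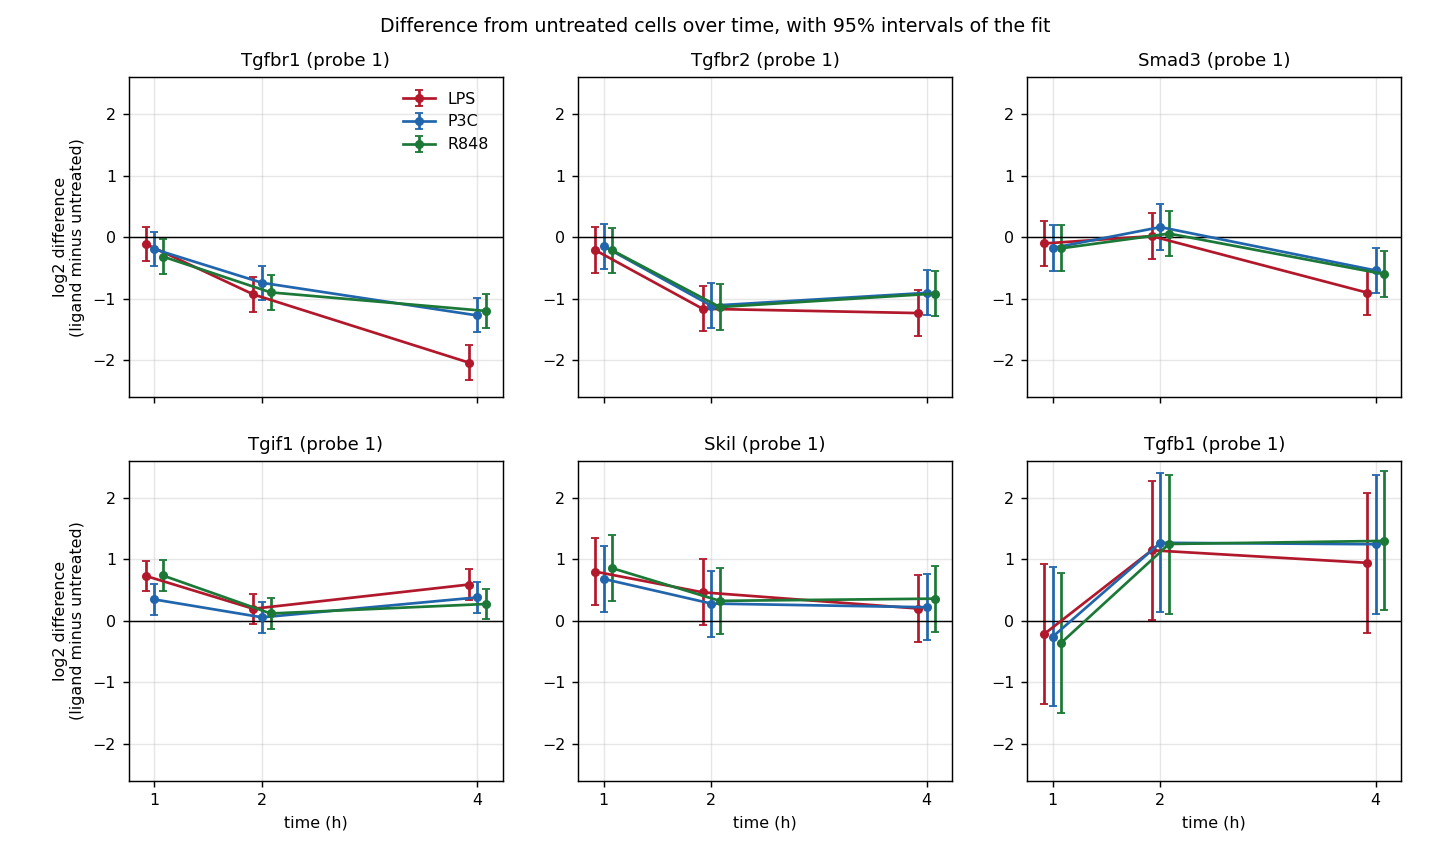
Log2 difference from untreated cells of the same time (vertical axis) against time in hours (horizontal axis) for 6 genes, with points for LPS, P3C and R848 and bars for the 95% interval of the limma fit. Tgfbr1 falls further between 2 and 4 h with LPS (−0.93, then −2.04), Tgif1 and Skil are highest at 1 h with LPS and R848, and the intervals of Tgfb1 are the widest.

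The receptor genes' patterns over time were tested by the change of the response between 1 and 4 h. For Tgfbr1 the 4 h difference minus the 1 h difference was −1.93 with LPS (SE 0.185, adjusted p = 4.2e-06), −1.08 with P3C (adjusted p = 0.00432) and −0.88 with R848 (adjusted p = 0.0145). For Tgfbr2 it was −1.03 with LPS (SE 0.244, adjusted p = 0.0134) and not called with the other ligands. Under median scaling the call remained for Tgfbr1 with LPS only, and ended for Tgfbr1 with P3C (−1.35, adjusted p = 0.919) and R848 (−1.09, adjusted p = 1.0) and for Tgfbr2 with LPS (−1.68, adjusted p = 0.149). These were 2 called probes of 14 for LPS, 1 for P3C and 1 for R848, where 8.85%, 2.29% and 2.87% of all probes were called. Without untreated 1 h replicate B the Tgfbr2 change was −0.85 (adjusted p = 0.076), and without untreated 4 h replicate A it was −0.98 (adjusted p = 0.0565). The R848 change of Tgfbr1 was not called without R848 1 h replicate B (−0.76, adjusted p = 0.0812), R848 4 h replicate B (−0.80, adjusted p = 0.0808), untreated 1 h replicate B (−0.72, adjusted p = 0.0805), untreated 4 h replicate A (−0.91, adjusted p = 0.0551) or untreated 4 h replicate B (−0.86, adjusted p = 0.0584), nor when only the arrays compared were fitted (adjusted p = 0.0777).

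Between ligands, with slide not in the model and no background correction, only Tgfbr1 at 4 h was called among the 126 pairs of probe and comparison. It was lower with LPS than with P3C (−0.77, 95% interval −1.04 to −0.49, adjusted p = 0.00156) and lower than with R848 (−0.84, 95% interval −1.12 to −0.56, adjusted p = 0.000803), where 5.39% and 4.64% of all probes were called. On the slide that held replicate B of LPS, P3C and R848 together, both differences were −0.73. Under median scaling they were −1.07 and −1.09 and not called (adjusted p = 0.21 and 0.264). R848 and P3C differed by 0.07 (95% interval −0.21 to 0.35). With background correction by neqc, Tgfbr1 was at −1.14 for LPS minus P3C and −1.24 for LPS minus R848, both called. Smad3 probe 1 was then called for LPS minus P3C (−1.10, adjusted p = 0.0335) but not for LPS minus R848 (−0.95, adjusted p = 0.0823). In these neqc comparisons 5.13% and 4.2% of all probes were called.

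For Tgfbr2 at 4 h, LPS minus P3C was −0.33 (95% interval −0.70 to 0.040) and LPS minus R848 was −0.32 (−0.69 to 0.051), and neither was called. Arrays of different ligands shared slides, so slide could also enter the model here, and at 4 h more members were then called. With slide as a random block Tgfbr2 was called for LPS minus P3C (−0.40, adjusted p = 0.0103) and LPS minus R848 (−0.39, adjusted p = 0.0132), Smad3 for LPS minus P3C (−0.39, adjusted p = 0.0479) and Tgif1 for LPS minus R848 (0.35, adjusted p = 0.024), where 15.8% and 15% of all probes were called. With slide as a fixed block (20.7% and 19.9% of all probes called) Tgfbr2 was at −0.46 and −0.44, Tgfb1 at −1.19 and −1.25 and Ski at −0.39 and −0.45 for LPS minus P3C and LPS minus R848, all called, and Skil was called for LPS minus P3C at 0.44 (adjusted p = 0.0435), against −0.02 without the block. Tgfbr1 stayed called in each of these fits (−0.75 to −0.83). At 4 h only replicate B of LPS lay on a slide with P3C and R848, so the fixed-block values lean on those arrays. There Tgfb1 differed by −1.18 and −1.31 and Ski by −0.32 and −0.40. Replicate A of LPS lay on another slide than those of P3C and R848, and went the other way. Tgfb1 read 11.18 with LPS, against 10.60 with P3C and 10.58 with R848, and Ski 7.13, against 6.86 and 6.90.

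Without slide in the model, no member was called between R848 and P3C at any time (0.0212%, 0.0142% and 0% of all probes at 1, 2 and 4 h), between LPS and P3C at 1 or 2 h (0.184% and 1.27%), or between LPS and R848 at 1 or 2 h (0.106% and 1.04%). Nor was any member called between untreated cells at 2 and 1 h, 4 and 1 h or 4 and 2 h, where 0.00708%, 0.085% and 0% of probes were called. The largest of these untreated differences for Tgfbr1 was −0.35 (4 h minus 1 h).

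Promoter sequence from RefSeq on GRCm38.p6, 250 bases before to 50 after the annotated start, was available for 6 of the members. The windows of the 3 genes that fell are shown because they fell together at 4 h with LPS. Capitals mark GGANTTTCC, an NF-kB type motif, and CAGAC, a short SMAD motif, searched on both strands.
Tgfbr1 (chr4:47352972-47353271, plus strand): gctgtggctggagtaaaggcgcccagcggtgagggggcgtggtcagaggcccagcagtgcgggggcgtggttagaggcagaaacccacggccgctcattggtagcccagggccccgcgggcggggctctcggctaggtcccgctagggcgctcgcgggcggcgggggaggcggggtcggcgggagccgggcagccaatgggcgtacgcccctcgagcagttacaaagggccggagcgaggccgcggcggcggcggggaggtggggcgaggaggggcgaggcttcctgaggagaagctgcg
Tgfbr2 (chr9:116175314-116175613, minus strand): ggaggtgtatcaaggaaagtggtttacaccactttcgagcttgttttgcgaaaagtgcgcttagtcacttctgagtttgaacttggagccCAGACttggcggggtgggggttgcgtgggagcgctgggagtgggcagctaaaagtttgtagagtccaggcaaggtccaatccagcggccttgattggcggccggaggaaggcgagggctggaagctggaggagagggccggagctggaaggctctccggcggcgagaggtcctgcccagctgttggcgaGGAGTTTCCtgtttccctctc
Smad3 (chr9:63757945-63758244, minus strand): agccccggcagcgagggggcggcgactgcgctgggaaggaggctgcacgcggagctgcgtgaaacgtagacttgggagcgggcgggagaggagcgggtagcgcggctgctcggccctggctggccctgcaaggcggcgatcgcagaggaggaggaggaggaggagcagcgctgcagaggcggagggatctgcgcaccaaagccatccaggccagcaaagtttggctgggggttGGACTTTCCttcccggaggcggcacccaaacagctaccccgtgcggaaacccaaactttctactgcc
GGANTTTCC lay at 30 in the Tgfbr2 window (GGAGTTTCC) and at −17 in the Smad3 window (GGACTTTCC), counted from the start, and 1.25% of 32851 mouse promoters of this length hold it. CAGAC was in the Tgfbr2 window at −160, and 49.6% of promoters hold it. The Tgfbr1 window held neither, and none of the 3 held the SMAD box GTCTAGAC (0.213% of promoters), the AP-1 motif TGANTCA (7.81%), the CRE TGACGTCA (1.79%) or TGTCA, the motif of Tgif1 (45.4%). A second annotated Tgfbr1 start held 1 CAGAC and 1 TGTCA. These matches are letters in a window and say nothing of binding.

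Smad3, a receptor-activated SMAD, had lower mean signals with every ligand at 4 h, and the differences with LPS and R848 were called. Its brightest probe read 6.79 and 6.95 in LPS-treated cells, 7.18 and 7.28 in P3C-treated cells and 7.15 and 7.20 in R848-treated cells, against 7.78 and 7.77 in untreated cells. All ligand arrays were below the untreated pair, and LPS was lowest. The differences were −0.90 with LPS (SE 0.174, adjusted p = 0.00125), −0.54 with P3C (adjusted p = 0.0679, not called) and −0.60 with R848 (adjusted p = 0.0372), and P3C and R848 left 68.6% and 65.8% of the untreated signal. With LPS only replicate B passed detection (detection p 0.0823 for replicate A and 0.00534 for B), so no percent is given for that group.

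Background correction by neqc moved these Smad3 values to −2.19 with LPS, −1.09 with P3C and −1.23 with R848, all called. The P3C difference was also called under median scaling (−0.64, adjusted p = 0.0152) and with only the arrays compared (adjusted p = 0.0168). So it was with a replicate block (adjusted p = 0.0172) and with pooled untreated arrays (adjusted p = 0.00295). The R848 difference was not called with no detection filter (adjusted p = 0.0936). The R848 call ended when any 1 of 4 arrays was left out: R848 4 h replicate A (−0.58, adjusted p = 0.168), R848 4 h replicate B (−0.63, adjusted p = 0.127), untreated 4 h replicate A (−0.60, adjusted p = 0.163) or untreated 4 h replicate B (−0.60, adjusted p = 0.142). At 2 h the Smad3 differences were 0.02, 0.16 and 0.06, with no call, at a time when both receptors had already fallen.

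The second Smad3 probe was called with LPS at 4 h only. It read 6.92 and 6.88 with LPS, against 7.13 and 7.16 in untreated cells, and so differed by −0.24 (SE 0.0652, adjusted p = 0.0133). With LPS only replicate A passed detection (detection p 0.00641, and 0.0235 for replicate B), so the value is near background. The difference was not called when only the arrays compared were fitted (adjusted p = 0.0699). The arrays did not overlap, but the call ended without LPS 4 h replicate B (−0.22, adjusted p = 0.0861), untreated 4 h replicate A (−0.26, adjusted p = 0.0507) or untreated 4 h replicate B (−0.23, adjusted p = 0.0855), and under median scaling (−0.34, adjusted p = 0.0842).

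Smad2, the other receptor-activated SMAD, was called in no comparison. Its signals ranged between 7.49 and 8.08 over the 24 arrays. The differences ran from −0.13 to 0.03, and with LPS at 4 h the 95% interval was −0.51 to 0.25, which does not hold the −0.90 of Smad3 probe 1 but does hold the −0.24 of Smad3 probe 2.

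Tgif1, a homeodomain co-repressor of SMAD complexes, was higher at 1 h with LPS and R848 on 2 probes and at 4 h with LPS. At 1 h the brightest probe read 8.43 and 8.78 in LPS-treated cells, 8.18 and 8.26 in P3C-treated cells and 8.56 and 8.66 in R848-treated cells, against 7.81 and 7.93 in untreated cells. Every ligand array exceeded both untreated arrays. The rise was 0.73 with LPS (SE 0.116, adjusted p = 0.0014) and 0.74 with R848 (adjusted p = 0.00135), while the difference with P3C was 0.35 (adjusted p = 0.196). Both calls ended under median scaling (0.83 with LPS, adjusted p = 0.0725, and 0.72 with R848, adjusted p = 0.206), and the LPS call also when only the arrays compared were fitted (adjusted p = 0.243).

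LPS minus P3C for Tgif1 at 1 h was 0.38 (95% interval 0.13 to 0.63), which was not called after adjustment (adjusted p = 0.996). At 2 h Tgif1 read 7.82 and 7.90 in LPS-treated cells, 7.62 and 7.83 in P3C-treated cells and 7.90 and 7.68 in R848-treated cells, against 7.59 and 7.74 in untreated cells. The ranges of P3C and R848 overlapped that of untreated cells, and no difference was called (0.20, 0.06 and 0.12). At 4 h it was 8.19 and 8.40 in LPS-treated cells, 8.02 and 8.15 in P3C-treated cells and 7.97 and 7.99 in R848-treated cells, against 7.74 and 7.67 in untreated cells, so the ligand arrays were again above. Tgif1 rose by 0.59 with LPS (adjusted p = 0.00146), and the differences of 0.38 with P3C (adjusted p = 0.0534) and 0.27 with R848 (adjusted p = 0.171) were not called.

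The second Tgif1 probe rose by 0.63 with LPS and 0.59 with R848 at 1 h and by 0.45 with LPS at 4 h (adjusted p = 0.00324, 0.00634 and 0.00721). It was not called without LPS 1 h replicate A (0.46, adjusted p = 0.0643), for R848 without R848 1 h replicate A (0.45, adjusted p = 0.132) or untreated 1 h replicate A (0.56, adjusted p = 0.0735), or at 4 h without LPS 4 h replicate B (0.42, adjusted p = 0.0562) or untreated 4 h replicate A (0.41, adjusted p = 0.0647). Its 1 h calls also ended under median scaling (adjusted p = 0.412 with LPS and 0.947 with R848) and with only the arrays compared (adjusted p = 0.293 and 0.169). Its LPS call at 4 h ended under median scaling too (0.16, adjusted p = 0.645). With neqc its 3 called values moved to 1.10, 1.04 and 0.90, all called. On probe 1 neqc gave 1.04 with LPS at 1 h, 1.06 with R848 at 1 h and 0.91 with LPS at 4 h. The third probe, detected on 15 arrays, was not called in the fit reported here. With neqc it was called at 4 h with LPS (0.70, adjusted p = 0.0173) and P3C (0.81, adjusted p = 0.0156). The P3C difference of probe 1 at 4 h was called with neqc (0.61, adjusted p = 0.0473) and 1 probe per gene (adjusted p = 0.0498). A replicate block (adjusted p = 0.0256) and pooled untreated arrays (adjusted p = 0.0271) also called it, and the other alternatives did not. Under median scaling the LPS value at 4 h on probe 1 was 0.21 (adjusted p = 0.455), where that scaling put the median of all probes at −0.28, against −0.04 under quantile normalization.

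**Figure D4:**
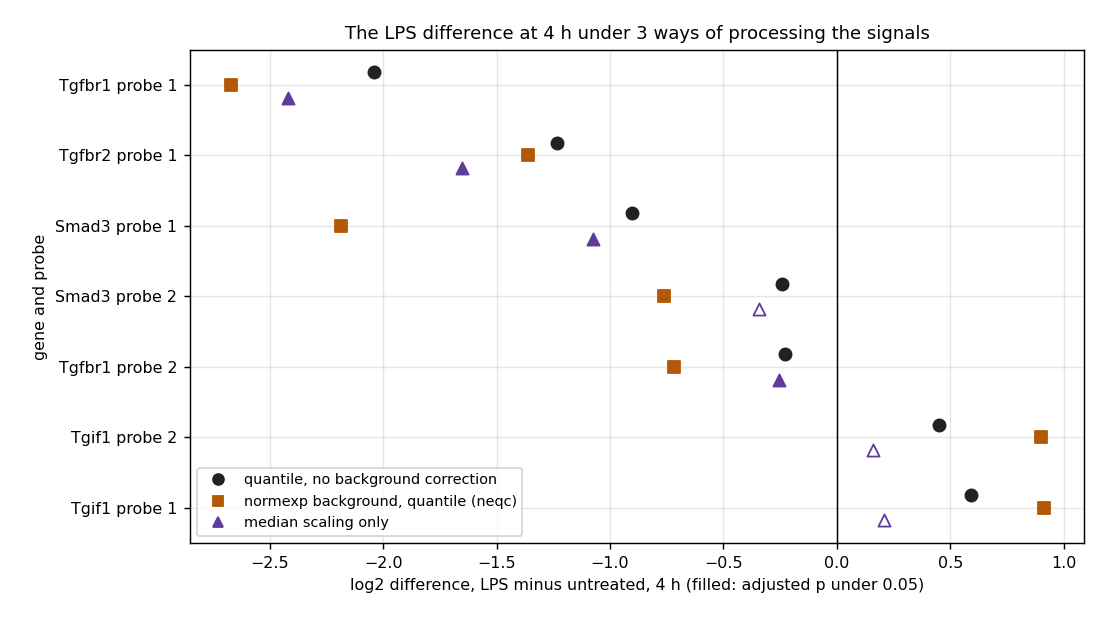
Log2 difference, LPS minus untreated at 4 h (horizontal axis), of the 7 called probes (vertical axis) under quantile normalization, neqc background correction and median scaling, with filled points where the adjusted p was under 0.05. Smad3 probe 1 lies at −0.90, −2.19 and −1.08, and both Tgif1 probes have open points under median scaling.

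Skil, also called SnoN, a SMAD co-repressor, had its highest signals at 1 h. It read 9.31 and 9.95 in LPS-treated cells, 9.30 and 9.72 in P3C-treated cells and 9.50 and 9.87 in R848-treated cells, against 8.77 and 8.89 in untreated cells. The ligand arrays did not overlap the untreated pair, which was also so for 37.4%, 45% and 40% of all probes. The differences of 0.80, 0.68 and 0.86 (SE 0.252, adjusted p = 0.142, 0.265 and 0.112) were not called. With slide as a random block, LPS (0.86, adjusted p = 0.0452) and R848 (0.96, adjusted p = 0.0267) were called. At 2 and 4 h the differences were between 0.20 and 0.46. The second Skil probe, detected on all 24 arrays, read 0.36, 0.30 and 0.48 above untreated cells at 1 h for LPS, P3C and R848 and was not called, but with slide as a random block R848 was (0.54, adjusted p = 0.0195).

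Ski, the founding member of the same co-repressor family, was called in no comparison without slide in the model. Its probe was detected on 20 of 24 arrays and read 6.84 to 7.82. The differences from untreated cells ran from −0.23 to 0.06.

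For the 3 members with most calls, the genes of most similar pattern were named over the 12 group means, as a description, since all points share the same arrays. Those nearest to Tgfbr1 were Pip4k2a (r = 0.988), Clspn and Msh6 (both 0.987). For Tgfbr2 they were Pik3cg (0.977), Gpn1 and Snx24 (both 0.976), and for Tgif1 they were Kin (0.958), Epc1 (0.924) and Rpl9 (0.923). Pip4k2a, a lipid kinase, fell by 1.41 with LPS at 4 h, and Msh6, a mismatch repair protein, by 1.71.

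Other genes of the pathway were counted by lists, to be read beside the shares of all probes called with LPS at 4 h, 10.7% higher and 13.3% lower. A gene counts as called when any of its probes was, so the probe counts are the ones to set beside these shares. Of 29 genes of ligands and their activation, 4 had a detected probe, and with LPS at 4 h 3 were called higher and 0 lower (4 and 0 of 5 probes). Nrros, which tethers latent ligand on myeloid cells, fell at 1 h by 0.82 with LPS, 0.89 with P3C and 1.10 with R848 (SE 0.089, adjusted p = 2.89e-05, 1.66e-05 and 1.15e-06) and was higher at 4 h by 0.69, 0.60 and 0.63 (adjusted p = 2.92e-05, 0.000361 and 0.000192). Furin, the protease that cleaves the precursor, rose by 1.20 with LPS at 4 h (adjusted p = 0.0376), and Itgav, an integrin subunit that activates latent ligand, rose by 0.89 with LPS at 2 h (adjusted p = 0.000235). Under median scaling none of the list was called in any of the 9 comparisons.

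Of the 19 other receptors of the superfamily and their partners, 10 were measured. With LPS at 4 h, 0 were higher and 2 lower (0 and 2 of 13 probes), with a median of −0.21 beside −0.04 for all probes. These were Acvr2b, an activin receptor, at −0.57 (adjusted p = 0.00362) and Bmpr1a, a bone morphogenetic protein receptor, at −0.46 (adjusted p = 0.0153). Of 12 measured genes among 23 other SMADs and nuclear partners, 0 were higher and 3 lower (0 and 3 of 15 probes). The lower ones were Sin3a, a co-repressor scaffold (−1.05, adjusted p = 0.00333), Rbl1, a pocket protein (−0.55, adjusted p = 0.00399), and Smad1, a SMAD of the bone morphogenetic protein branch (−0.28, adjusted p = 0.01). Smad6, an inhibitory SMAD like Smad7, was called only with P3C at 1 h (−0.43, adjusted p = 0.0499).

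Of 17 measured genes for turnover of receptors and SMADs, 2 were higher and 4 lower with LPS at 4 h. These were 2 and 4 of 36 probes, where 24% of all probes were called. Ppp1r15a, a phosphatase subunit that can act on the type I receptor, rose at 1 h by 3.65 with LPS, 1.81 with P3C and 2.39 with R848 (SE 0.179, adjusted p = 3.15e-09, 1.46e-05 and 4.92e-07). Wwp1, a ubiquitin ligase, was at −0.49 and Ctdsp2, a SMAD phosphatase, at −0.67 with LPS at 4 h (adjusted p = 0.000244 and 0.0203), and Uchl5, a deubiquitinase, at −0.51 with R848 at 4 h (adjusted p = 0.0305). In the branch to MAP kinases, with 10 measured genes, 3 were higher and 1 lower with LPS at 2 h. These were 3 and 2 of 19 probes, where 10.3% of all probes were called. Tab1, a partner of the kinase TAK1, fell by 0.83 on its brightest probe (adjusted p = 0.00338), while Map2k4 and Traf6 rose by 0.47 and 0.39 (adjusted p = 0.0146 and 0.00603). Under median scaling 0 genes of this branch were called with LPS at 2 h. Without that scaling, 2 genes were higher and 1 lower with LPS at 4 h (2 and 2 of 19 probes), where 24% of all probes were called. Tab2 rose by 0.50 at 4 h (adjusted p = 0.0075).

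Of 31 transcripts that TGF-beta is known to raise, 12 were measured, and 6 were higher and 1 lower with LPS at 4 h. These were 9 and 2 of 19 probes, where 10.7% of all probes were higher and 13.3% lower. With LPS, Pdgfb, a growth factor, rose by 2.68 at 2 h (adjusted p = 1.86e-05) and Junb, an AP-1 subunit, by 2.31 at 1 h (adjusted p = 0.000269). Axl, a receptor kinase, rose by 1.67 at 4 h (adjusted p = 5.09e-06) and Timp1, a protease inhibitor, at least 5.28-fold (adjusted p = 6.78e-10). Of the 5 transcripts that TGF-beta is known to lower, 4 were measured and 3 were higher with LPS at 4 h (4 of 6 probes). Tnf, an inflammatory cytokine, rose by 4.77 with R848 at 4 h (SE 0.230, adjusted p = 3.86e-09), Myc, a growth-promoting transcription factor, at least 1.54-fold with LPS at 2 h (adjusted p = 4.11e-06) and Nos2, the inducible nitric oxide synthase, at least 1.58-fold with LPS at 4 h (adjusted p = 8.13e-08). For a fold given as at least, the untreated arrays did not pass detection, and the lowest detected signal of each array took their place. In these comparisons only the ligand arrays passed detection, so a higher call can be favoured by the filter. Under median scaling, the LPS counts at 4 h were 0 higher and 3 lower for the other receptors, 0 and 4 for the SMAD partners, 1 and 4 for turnover, 0 and 1 for the MAP kinase branch, 3 and 1 for transcripts raised by TGF-beta and 3 and 0 for those it lowers.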

How the data were processed

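The authors deposited non-normalized signal intensity for each of 45281 probes of an Illumina BeadChip with a detection p-value, and log2 values of 23937 probes after their own quantile normalization, used here as an alternative. The submitters' processing notes name GenomeStudio 2011.1. Following the methods, the log2 of each intensity was quantile-normalized across the 24 arrays, with no background correction. Tests ran on the 14119 probes that passed a detection p of 0.01 on each array of any 1 of 12 groups. Names came from the array's probe table, updated by gene identifier (16512 probes) or accession (1422), with 2035 unmatched. Moderated limma tests on group means gave p-values adjusted by Benjamini and Hochberg for each comparison. All members are named, and of each pathway list up to 4 called genes with the largest differences. Members and lists were chosen with earlier results of these data known. The steps were tested on simulated data. Tools were R 4.3.3, limma 3.58.1, Python and matplotlib. The alternatives tried were median scaling, background correction by neqc, the authors' table, other detection filters, 1 probe per gene, fits of only the arrays compared, pooled untreated arrays, an intensity trend in the prior, a replicate block, slide blocks, and each array left out in turn.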

Additional observations from a re-analysis of the deposited data

Results flagged for a closer look

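Response changes between 1 and 4 h were singled out because the test of the difference between times was called. The 4 h difference from untreated cells minus the 1 h difference was −1.93 for Tgfbr1 with LPS (limma adjusted p = 4.2e-06), −1.08 with P3C (adjusted p = 0.00432) and −0.88 with R848 (adjusted p = 0.0145), and −1.03 for Tgfbr2 with LPS (adjusted p = 0.0134). The fall of Tgfbr1 at 4 h also differed between ligands, by −0.77 for LPS minus P3C (adjusted p = 0.00156) and −0.84 for LPS minus R848 (adjusted p = 0.000803). Each was on probe 1, with 2 arrays per group. Of 19 alternatives, the LPS change of Tgfbr1 was called in 19, its P3C change in 18 (not under median scaling, adjusted p = 0.919), its R848 change in 12 and the LPS change of Tgfbr2 in 16. Both differences between ligands ended under median scaling (adjusted p = 0.21 and 0.264).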

How the results depend on the processing

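Over the named probe and comparison pairs, 1914 values under alternatives kept their side of the threshold, 46 came to pass it and 56 no longer passed. Of values called here or under the alternative, 0 turned direction. Direction was not compared where neither was called. Outside these, Skil for LPS against P3C at 4 h turned with slide as a fixed block (0.44, against −0.02). Precision was limited by 2 arrays per group, and dim probes (Tgfbr1 probe 2, Smad3, Tgif1 probe 3) by background signal, which neqc removes and the reported values keep. The cause of each shift in counts was not tested, apart from settings with fewer arrays or probes.

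Counts of called member probes moved as follows. At 1 h, LPS (2) gave 0 under median scaling and with only the arrays compared, 1 with 1 probe per gene and 4 with pooled untreated arrays, P3C (0) gave 3 with pooled untreated arrays, and R848 (2) gave 0 under median scaling, 1 with 1 probe per gene or only the arrays compared, 4 with slide as a random block and 5 with pooled untreated arrays. At 2 h all 3 ligands (2 each) gave 0 under median scaling and with only the arrays compared. At 4 h, LPS (7) gave 4 under median scaling, with probes detected on all 24 arrays and with 1 probe per gene. P3C (2) gave 6 with neqc, 1 under median scaling, 4 with only the arrays compared, 4 with a trend in the prior and 6 with pooled untreated arrays, and R848 (3) gave 1 under median scaling and 5 with pooled untreated arrays. LPS against P3C at 4 h (1) gave 2 with neqc, 0 under median scaling, 3 with slide as a random block and 5 as a fixed block, and LPS against R848 (1) gave 0, 3 and 4 under the last 3 settings. The change of the response gave 4 for LPS (2) with a trend in the prior, 0 for P3C (1) under median scaling, and 0 for R848 (1) under median scaling and with only the arrays compared.

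Leaving out 1 array gave 1 to 2 called probes for LPS and for R848 at 1 h, 2 to 3 for R848 at 2 h, 5 to 6 for LPS at 4 h, 2 for R848 at 4 h, and, for the change of the response, 1 to 3 for LPS and 0 to 1 for R848. Deviations of same-lettered replicates correlated at 0.0576 to 0.433 (median 0.26) between treated and untreated groups of a time, over 0.1 in 8 of 9 such pairs, and at −0.626 to 0.825 over all 66 pairs of groups. Since not every pair was over 0.1 and no label says that a letter marks a shared day or batch, the letters were not taken to pair samples. A pairing within a time was not tested. A replicate block gave 4 calls for P3C at 4 h in place of 2, and counts within 1.5 times elsewhere. The Tgfb1 differences at 2 and 4 h were not called with it (adjusted p = 0.102 to 0.178). That block fits a single shift between A and B over all groups, while for Tgfb1 A minus B ran from −0.82 to 1.45. It could not take up a shift that differs between times, so it does not decide how pairing would change the Tgfb1 tests. Over all probes, median scaling moved the LPS calls at 4 h to 501 higher and 1804 lower, against 1510 and 1881, and the median of all probes to −0.28 there, −0.23 for LPS against P3C and −0.20 for LPS against R848.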
